A study of Mus musculus with 105 samples.

Results

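The 10 genes described here belong to the machinery of meiotic arrest and its release in the mouse egg, and were followed through ribosome footprints, mRNA and poly(A) tail lengths: Mos, Fbxo43, Fbxo5, Cdc20, Fzr1, Cdc27, Cdc16, Anapc1, Espl1 and Rec8. They were taken by name, as the components named for the arrest, with earlier results of these data known. All 10 were found among the 20756 genes of the 2 expression tables. The oocytes were Btg4 knockout (KO) MII oocytes, Btg4 heterozygous (Het) MII oocytes, wild-type MII oocytes and wild-type full-grown oocytes (FGO), where MII is the stage at which the ovulated egg waits for the sperm. C57BL/6 females aged 8 or 5 weeks had received 5 IU PMSG and 5 IU hCG, the gonadotropins that drive follicle growth and ovulation. Footprints were measured in 20 single MII oocytes and 18 single FGO, both wild type, and in 3 KO and 3 Het libraries. Polyadenylated mRNA was measured by Smart-seq2 in 2 KO and 2 Het libraries, and tail lengths in 2 KO, 1 Het, 1 wild-type MII and 1 wild-type FGO library. The labels name neither the animals nor the number of oocytes behind a library, Het oocytes keep 1 intact Btg4 allele, and no wild-type library stands beside the KO and Het ones in the footprint and mRNA comparison.

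The egg is held at metaphase II because the anaphase-promoting complex (APC/C), a ubiquitin ligase, is kept from destroying cyclin B1 and securin. MOS, a kinase made from stored maternal mRNA, feeds the MAP kinase cascade, and EMI2, the product of Fbxo43, binds and inhibits the APC/C until the calcium signal of fertilization removes it. Once the APC/C is active with its coactivator CDC20, securin is destroyed, separase (Espl1) is set free and the cohesin that ties sister chromatids is cut. BTG4 brings the CCR4-NOT deadenylase to maternal mRNAs, which shortens their tails during maturation.

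Values are FPKM, reads per kilobase of transcript, scaled to the reads of the library, so a level is relative to the rest of that library. Comparisons of different genes within a library rest on the transcript length, for footprints too, and other lengths were not tried. Between 3645 and 6351 genes reached 1 FPKM in a single MII oocyte, and between 4338 and 8826 in a single FGO. Low footprint values of Mos, Fbxo5 and Fzr1 were whole multiples of a step, which was taken as the value of 1 read. Reads were counted on that basis. A factor common to all counts of a gene cannot be settled from the values, and intervals depend on it. A single Mos read was worth 0.877 to 3.43 FPKM in MII oocytes and 0.320 to 1.38 FPKM in FGO. All 10 oocyte markers, such as Gdf9 and Zp3, averaged above 1 FPKM in every group except Figla, at 0.755 FPKM in single MII oocytes. The 15 granulosa and cumulus markers summed to a median of 129 FPKM per MII oocyte (range 70.7 to 220.5) and 34.5 FPKM per FGO (0.918 to 125). Serpine2 alone averaged 120 FPKM in MII oocytes and 4.31 FPKM in FGO. Of the 15 markers, 5 averaged 1 FPKM or more in MII oocytes and 10 did in FGO. Fshr and Has2 were at 0 in each MII oocyte and Has2 in each FGO. The 10 blood and immune markers summed to a median of 0.114 FPKM per MII oocyte (0 to 98.2) and 2.57 FPKM per FGO (0 to 527). The part of the granulosa and cumulus markers in the results was not tested. Without the oocytes in which a hemoglobin gene was above 0, which left 19 MII oocytes and 9 FGO, the ratios of footprints between the stages given next were 5.16 for Mos, 4.65 for Fbxo43, 5.56 for Cdc20, 3.37 for Cdc27, 2.96 for Espl1 and -2.85 for Fzr1, and that of Anapc1 was 1.32 in place of 0.79.

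In single oocytes the question was which arrest components are being translated before and after maturation. Footprints of Mos, Fbxo43, Cdc20 and Cdc27 were higher in every MII oocyte than in any FGO, Espl1 was higher in nearly all pairs of oocytes, and Fzr1 was lower. Without a named animal behind each cell, a stage stands for 1 sample, and the difference between stages was not tested. The ratio given is that of mean FPKM + 1 in MII to mean FPKM + 1 in FGO, as a log2 value, which understates the change of low genes, and 1 on this scale is called past the fold. Of the 9 members that averaged 1 FPKM or more over all 38 oocytes, 5 were higher past the fold and 1 was lower. Among all 8788 such genes 27.9% were higher past the fold and 31.3% lower. For 4 of the 9 members no MII oocyte overlapped with an FGO in the direction of MII, which held for 2.18% of all such genes. The members' median ratio was 2.85 and that of all genes -0.15. The list was chosen with earlier results of these data known, so these shares and medians are a description. With each oocyte scaled to the same median over genes the median of all genes became 1.18, and with equal FPKM totals it became -0.42.

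Mos, the kinase at the head of the cascade, had 131 FPKM in the lowest MII oocyte, 519 in the median one and 1011 in the highest, against 0, 12.1 and 35.6 FPKM in FGO. The ranges did not overlap. In reads, Mos had 4387 over the 20 MII oocytes and 452 over the 18 FGO. The ratio was 5.03, with 514 ± 269 FPKM in MII oocytes and 14.8 ± 10.8 FPKM in FGO (SD between oocytes, n = 20 and 18). It lay between 4.23 with equal totals and 6.31 with median scaling.

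Fbxo43, which encodes the APC/C inhibitor EMI2, had 17.4 FPKM in the lowest MII oocyte, 79.9 in the median one and 169 in the highest, against 0, 0.570 and 12.7 FPKM in FGO. It was listed at 0 in 8 of 18 FGO, since 10 had a value above 0. Its ratio was 5.06, with means of 78.8 ± 35.0 FPKM in MII oocytes and 1.39 ± 2.98 FPKM in FGO (SD, n = 20 and 18). Fbxo5 encodes the related inhibitor EMI1, which acts before the metaphase II arrest. Its levels were 0, 0 and 32.2 FPKM at the lowest, median and highest MII oocyte, against 0, 3.07 and 16.8 FPKM in FGO. Only 4 of 20 MII oocytes had a Fbxo5 read, against 14 of 18 FGO.

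Of the 16 Fbxo5 reads in MII oocytes, 8 came from oocyte 4 and 6 from oocyte 2. A level equal to the FGO mean of 4.64 FPKM would have given 28 reads at the depth of the MII oocytes. A count of 0 allows 3 reads, which is 4.10 to 16.1 FPKM of Fbxo5 in an MII oocyte. A level near the FGO mean could thus hardly be told from 0 in any 1 oocyte. Pooled over oocytes, Fbxo5 was at 2.61 FPKM in MII (95% exact Poisson interval 1.49 to 4.24) and 4.76 FPKM in FGO (3.80 to 5.88). These intervals and limits cover counting error only, with the step taken as 1 read. Within 1 oocyte, where scaling cannot matter, Fbxo43 stood above Fbxo5 in 19 of 20 MII oocytes and in 2 of 18 FGO, and below it in 1 MII oocyte and 13 FGO.

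**Figure D1:**
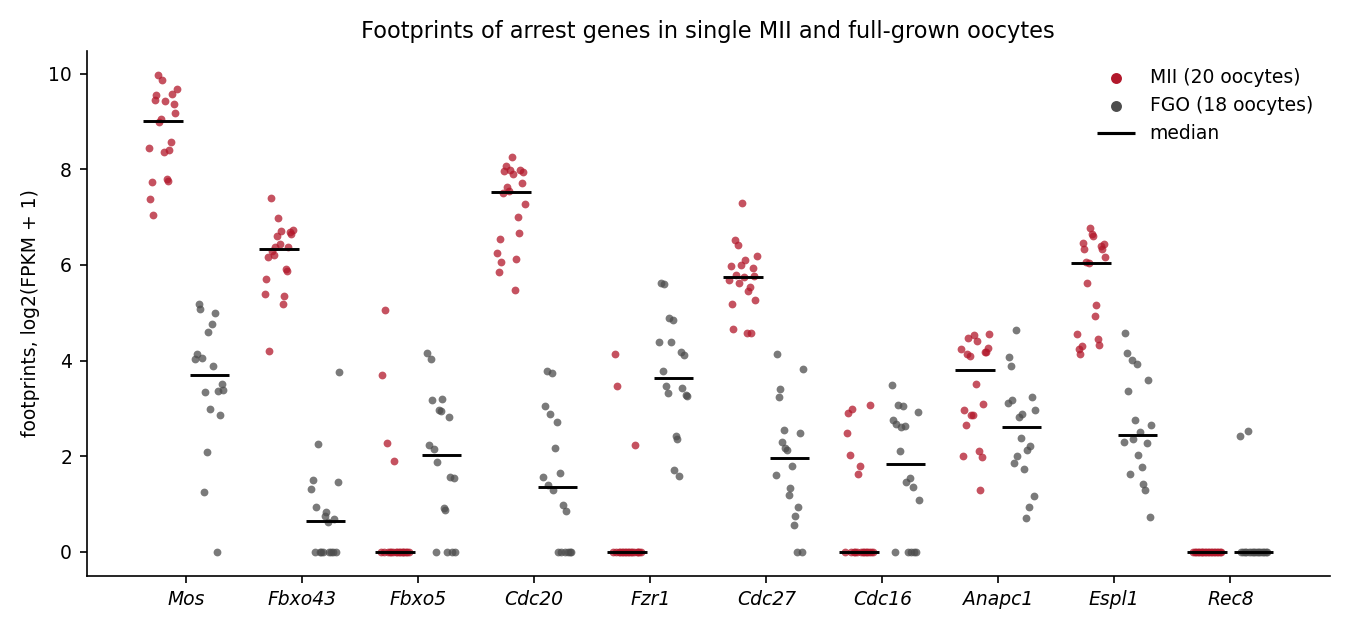
Footprint levels of the 10 arrest genes as log2(FPKM + 1) in 20 single MII oocytes (red, left of each pair) and 18 single FGO (grey), 1 point per oocyte with the median as a black line. Mos, Fbxo43, Cdc20 and Cdc27 do not overlap between the stages, Fzr1 is above 0 in 3 MII oocytes and in all 18 FGO, and Rec8 is above 0 in 2 FGO.

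The coactivators of the APC/C stood in opposite order at the 2 stages. Cdc20, which activates the APC/C at the metaphase to anaphase transition, had 43.5, 183 and 305 FPKM in the lowest, median and highest MII oocyte, against 0, 1.55 and 12.7 FPKM in FGO. All MII oocytes were above all FGO. Its ratio of 5.35 was the highest of the 10 genes, with 168 ± 83.5 FPKM in MII oocytes and 3.15 ± 4.10 FPKM in FGO (SD, n = 20 and 18). Fzr1 encodes CDH1, the coactivator that holds the oocyte in prophase arrest. It had 0, 0 and 16.5 FPKM in the lowest, median and highest MII oocyte, against 2.00, 11.5 and 48.1 FPKM in FGO. Each of the 18 FGO had Fzr1 reads, and 3 of the 20 MII oocytes did.

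Fzr1 had 14 reads over all MII oocytes, where the FGO mean of 16.5 FPKM would have given 122 at the same depth. Pooled over oocytes it was at 1.90 FPKM in MII (95% exact Poisson interval 1.04 to 3.19) and 19.3 FPKM in FGO (17.5 to 21.3). Its ratio was -2.80, and -1.95 with median scaling. Oocytes 2 and 4 carried 16.5 and 10.0 FPKM of the Fzr1 footprints of MII oocytes. Over all genes that averaged 1 FPKM or more the footprints of these oocytes had median correlations of 0.579 and 0.614 with FGO, against 0.224 to 0.373 for the other 18 MII oocytes. With the other MII oocytes their median correlations were 0.596 and 0.538, so oocyte 4 was closer to FGO than to MII oocytes. Without both the ratio was -3.86 for Fzr1 and -2.05 for Fbxo5, and without oocyte 4 alone -1.51 for Fbxo5, in place of -0.67. Within an oocyte Cdc20 was above Fzr1 in 20 of 20 MII oocytes and 1 of 18 FGO. This comparison of genes within an oocyte, like that of the inhibitors, was chosen after the values were seen.

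**Figure D2:**
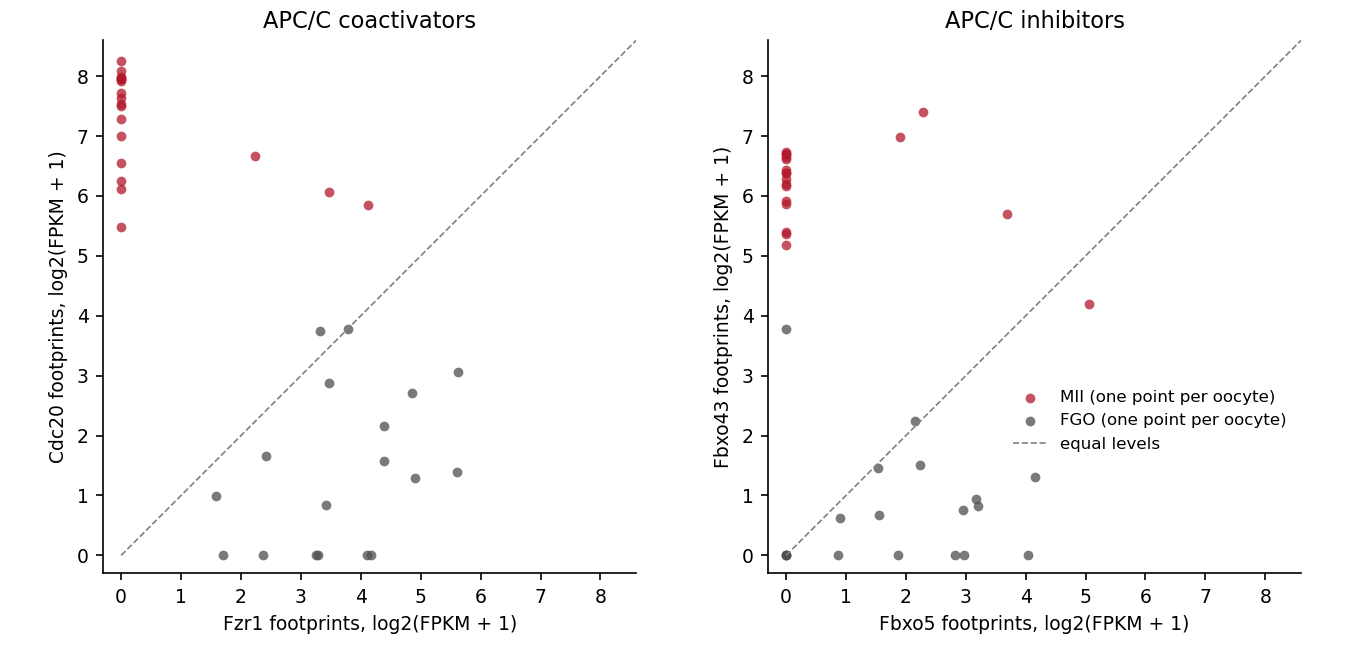
Footprints, log2(FPKM + 1), of Cdc20 against Fzr1 (left) and of Fbxo43 against Fbxo5 (right), 1 point per single oocyte, MII in red and FGO in grey, with equal levels on the dashed line. All 20 MII oocytes lie above the line for the coactivators and 17 of 18 FGO below it, and 19 of 20 MII oocytes lie above it for the inhibitors.

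The 3 core subunits differed from each other. Cdc27, a subunit to which coactivators bind, had 22.7, 53.1 and 156 FPKM in the lowest, median and highest MII oocyte, against 0, 2.91 and 16.7 FPKM in FGO. The stages did not overlap, and the ratio was 3.46. Anapc1, the large scaffold subunit, had 1.44, 13.2 and 22.4 FPKM in MII oocytes, against 0.626, 5.17 and 24.0 FPKM in FGO. The stages overlapped, MII was higher in 71.4% of oocyte pairs, and the ratio was 0.79, or 1.2 for medians over oocytes and 2.33 with median scaling. Cdc16, a subunit of the same arm as Cdc27, had 0, 0 and 7.35 FPKM in MII oocytes, against 0, 2.62 and 10.2 FPKM in FGO. Of its values 7 of 20 in MII oocytes and 13 of 18 in FGO were above 0. Its ratio of -0.76 turned to 0.61 with median scaling, so no direction is given for Cdc16. Cdc27 stood above Cdc16 in 20 of 20 MII oocytes and 9 of 18 FGO.

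Espl1, the protease separase, had 16.6, 65.1 and 108 FPKM in the lowest, median and highest MII oocyte, against 0.658, 4.43 and 22.8 FPKM in FGO. MII was higher in 98.1% of the oocyte pairs and the ratio was 2.85. Rec8, the meiotic cohesin subunit that separase cuts, was listed at 0 in all MII oocytes and in 16 of 18 FGO, with 4.33 and 4.78 FPKM in FGO 1 and 6. It did not reach the filter of 1 FPKM.

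By mean level in MII oocytes the order was Mos, Cdc20, Fbxo43, Espl1, Cdc27, Anapc1, Fbxo5, Cdc16, Fzr1 and Rec8. Mos was above Cdc20, and Cdc20 above Fbxo43, in 20 of 20 oocytes. Espl1 was above Cdc27 in 8 of 20, so these neighbours did not differ beyond their spread, and Fbxo5, Cdc16 and Fzr1 were each at 0 in most MII oocytes. In FGO the order opened with Fzr1 and Mos, and Fzr1 was above Mos in 10 of 18 oocytes. The 8 MII oocytes with the lowest levels were numbers 1 to 4 and 13 to 16 for Fbxo43, Cdc20 and Espl1 alike. Of the 8 lowest for Mos 7 were among these, and of the 8 lowest for Cdc27 6 were. FPKM summed to between 144559 and 428669 in these 8 oocytes and to between 349670 and 598538 in the other 12. With equal totals 4 of the 8 lowest Fbxo43 values, 5 for Mos and for Cdc20, 3 for Cdc27 and 6 for Espl1 remained among those oocytes. The labels name no batch for the oocytes.

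A list of 36 further genes of the pathway covers the other APC/C subunits, its ubiquitin-conjugating enzymes and substrates, the MOS cascade, the release from arrest, and cohesin. Of the 33 that averaged 1 FPKM or more, 7 were higher past the fold in MII oocytes and 8 lower, with a median ratio of -0.07. Neither count was a larger share than that of all genes, 27.9% and 31.3%. Cyclin B1 (Ccnb1), the APC/C substrate that keeps the egg in M phase, had the highest ratio at 5.53, with 1178 ± 536 FPKM in MII oocytes and 24.6 ± 22.6 FPKM in FGO (SD, n = 20 and 18). Anapc10, a subunit that helps to bind substrates, followed at 4.49, and Map2k1, the MEK1 kinase that MOS phosphorylates, at 3.68. The lowest were Mapk3, the ERK1 kinase, at -3.09, the scaffold subunit Anapc5 at -2.61, and Camk2g, the calcium-dependent kinase that starts the release from arrest, at -2.50. Mapk3 averaged 3.66 ± 6.93 FPKM in MII oocytes and 38.7 ± 28.0 FPKM in FGO. Of the 11 other APC/C subunits 2 were higher past the fold and 5 lower. For the MOS cascade these counts were 1 and 1 of 6, and for the release from arrest 0 and 2 of 5. Of the 6 cohesin genes and protectors that averaged 1 FPKM or more, 3 were higher past the fold and 0 lower, namely Sgo2a, a protector of centromeric cohesin, at 3.28, Smc3 at 2.44 and Rad21 at 1.5, while Rad21l had 0.89, Sgo1 0.15 and Smc1b -0.51.

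The second question was what the arrest genes do in MII oocytes that lack Btg4. Btg4 itself, the check of the genotype, had 1148, 971 and 907 FPKM of footprints in the KO libraries, against 7009, 6346 and 6134 FPKM in the Het libraries. Its mRNA had 1754 and 2345 FPKM in KO, against 3293 and 4774 FPKM in Het. The footprints fell by 2.69 on the log2 scale (limma, adjusted p = 0.00654, n = 3 each), while the mRNA change of -0.97 did not pass (limma, adjusted p = 0.0889, n = 2 each). Btg4 reads were thus still counted in the KO libraries, and the labels do not name the deleted part.

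In fits of genotype alone no arrest gene passed the test in mRNA, in footprints or in efficiency, the change of footprints relative to mRNA. The threshold was a limma adjusted p below 0.05 over all genes that averaged 1 FPKM or more. In mRNA 9 members were tested, 0 rose and 0 fell, and 2 of them, Cdc20 and Fbxo43, had an unadjusted p below 0.05. Among all 8865 genes 18.9% rose and 0.62% fell, and 2960 had an unadjusted p below 0.05 (limma). The 2 members were not a larger share than this. The members' median log2 change in mRNA was -0.12 and that of all genes 0.14. That of all genes became -0.27 with median scaling, -0.22 with quantile normalization and 0.06 with equal totals. With a block for the replicate number 2 members were higher in KO (Fzr1 and Cdc16) and 4 lower (Fbxo43, Cdc20, Cdc27 and Espl1). Of the 8865 genes 3033 were then higher and 1553 lower. No label ties the libraries of a number. No animals or cultures are told apart in the labels, so these p-values measure only the spread between libraries, which may be technical. Since the number of oocytes behind a library is not named, fewer oocytes with a transcript and less of it per oocyte cannot be told apart. A level is relative to the rest of its library and the labels name no spike-in, so a lower value need not be a loss of the transcript. Smart-seq2 reads RNA with a poly(A) tail, and the part of tail length in these values was not tested.

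Cdc20 mRNA had 121 and 93.7 FPKM in the KO libraries, against 236 and 191 FPKM in the Het libraries. Both KO values lay below both Het values, which held for 22% of all tested genes in mRNA. The change was -0.98 with a standard error of 0.30, just short of the threshold (limma, adjusted p = 0.0551, n = 2 each). It passed with equal totals (adjusted p = 0.0483, limma), quantile normalization (0.0435) and median scaling (0.0353), where its change was -1.08, -1.21 and -1.39. Relative to the median of all genes the change was of like size in each of these. Without 1 library it lay between -1.17 and -0.80 and did not pass (limma, adjusted p between 0.0517 and 0.409).

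Fbxo43 mRNA had 53.1 and 32.3 FPKM in KO, against 105 and 63.9 FPKM in Het, with no overlap, as 22% of all tested genes. The change was -0.97 ± 0.38 (standard error, limma, adjusted p = 0.113, n = 2 each). It passed with median scaling, at -1.37 (limma, adjusted p = 0.0398), and without the second Het library, at -1.32 (limma, adjusted p = 0.0293). Without the first Het or the second KO library it was -0.61 (limma, adjusted p = 0.404 and 0.577). Espl1 mRNA had 8.78 and 4.91 FPKM in KO, against 26.5 and 8.04 FPKM in Het. The groups overlapped, the change was -1.05 (limma, adjusted p = 0.214), and without the second Het library it was -1.85 (limma, adjusted p = 0.00550). Without the first Het library it was -0.25 (limma, adjusted p = 0.817) and without the second KO library -0.69 (limma, adjusted p = 0.588), so its size rests on single libraries.

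Mos mRNA had 739 and 496 FPKM in KO, against 771 and 562 FPKM in Het. The libraries overlapped and the change was -0.12, with a 95% confidence interval of -0.89 to 0.65 (limma, adjusted p = 0.822). Fbxo5 mRNA, at 97.8 and 58.0 FPKM in KO, against 101 and 55.4 FPKM in Het, changed by 0.01, which turned to -0.40 with median scaling, -0.27 with quantile normalization and -0.09 with equal totals. Fzr1 mRNA had 7.70 and 7.37 FPKM in KO, against 5.71 and 2.31 FPKM in Het, and Cdc16 mRNA had 18.8 and 16.1 FPKM in KO, against 11.4 and 9.11 FPKM in Het. The KO libraries of both lay above the Het libraries, with changes of 0.86 and 0.72 (limma, adjusted p = 0.196 and 0.176). In mRNA both KO libraries lay above both Het libraries for 38.9% of all tested genes and below them for 22%, so the order of the libraries says little about a member. Cdc27 mRNA had 44.4 and 40.3 FPKM in KO, against 58.3 and 62.0 FPKM in Het, with no overlap and a change of -0.50. Anapc1 had a change of -0.01. Rec8 was listed at 0 in each library, and neither Cdc27 nor Anapc1 passed in the fit of genotype alone.

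**Figure D3:**
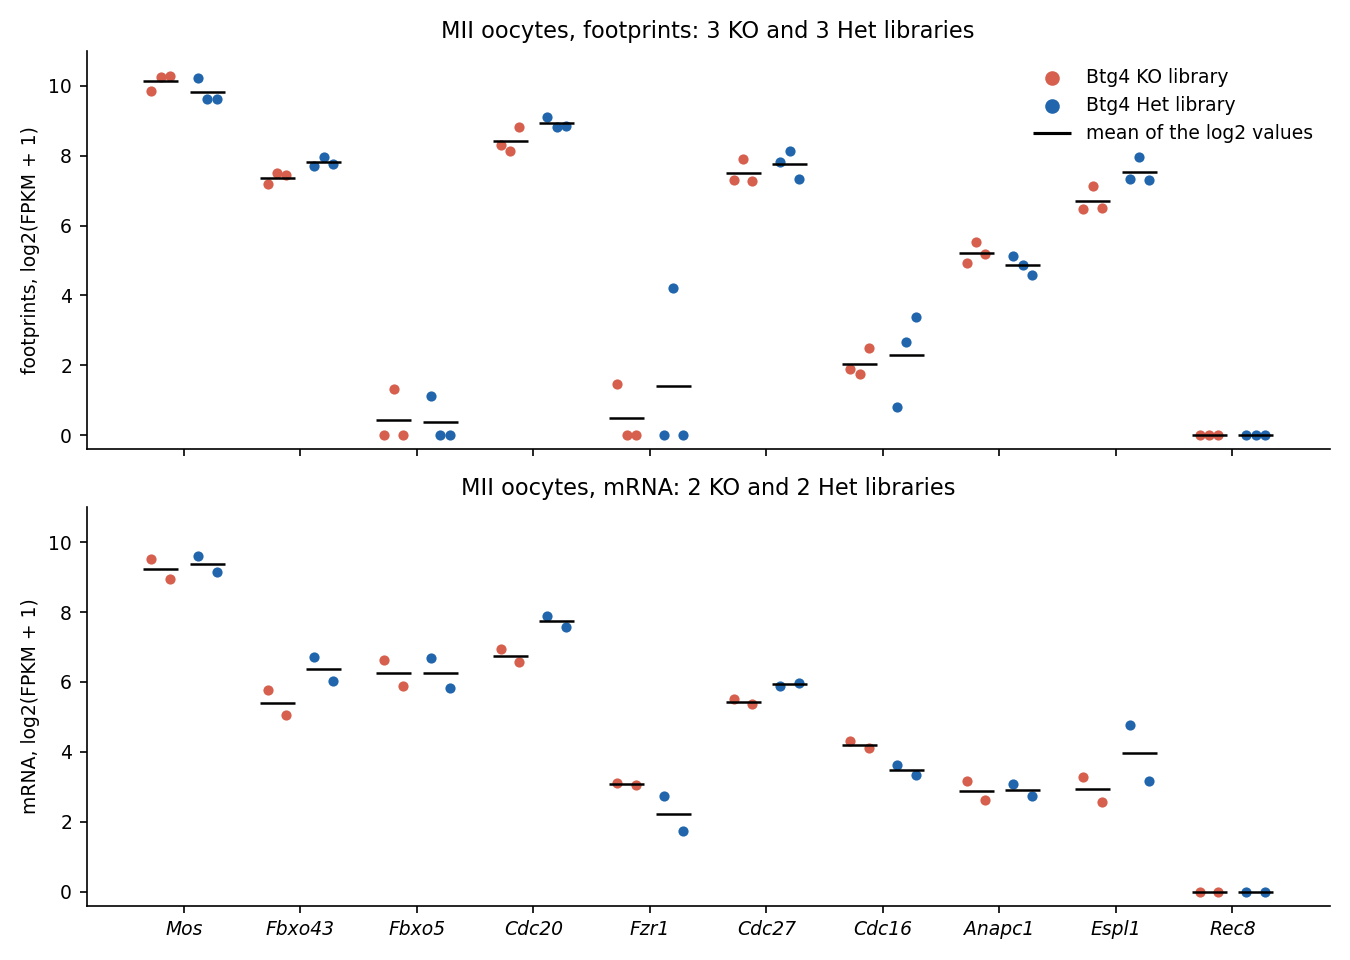
Footprints (top) and mRNA (bottom) of the 10 arrest genes in MII oocytes as log2(FPKM + 1), Btg4 KO in red on the left of each pair and Het in blue, 1 point per library with the mean of the log2 values as a black line. Cdc20 and Fbxo43 lie lower in KO than in Het in both assays without overlap. This order holds for 22% of all tested genes in mRNA and 7.69% in footprints. Fbxo5 has 55.4 to 101 FPKM of mRNA but at most 1.52 FPKM of footprints.

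In footprints 8 members were tested in the fit of genotype alone, 0 rose and 0 fell, and 0 had an unadjusted p below 0.05 (limma). Fbxo5 and Rec8 were under the filter. Among all 8526 genes 3.21% rose and 0.328% fell, and 1549 had an unadjusted p below 0.05 (limma). The members' median change was -0.36 and that of all genes 0.27, or -0.17 with median scaling, -0.14 with quantile normalization and 0.30 with equal totals.

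Footprints of Mos had 927, 1213 and 1230 FPKM in KO, against 1203, 783 and 791 FPKM in Het. The change was 0.30 (95% confidence interval -0.40 to 1.00, limma, adjusted p = 0.625, n = 3 each), and it turned to -0.15 with median scaling. Fbxo43 had 143, 180 and 173 FPKM in KO, against 209, 250 and 217 FPKM in Het, a change of -0.45 (limma, adjusted p = 0.481). Cdc20 had 315, 279 and 447 FPKM in KO, against 547, 451 and 456 FPKM in Het, a change of -0.50 (limma, adjusted p = 0.436). Espl1 had 88.5, 138 and 88.7 FPKM in KO, against 162, 247 and 156 FPKM in Het, the largest change of the tested members with a mean above 10 FPKM, at -0.83 (limma, adjusted p = 0.288). For these 3 genes, Fbxo43, Cdc20 and Espl1, every KO library lay below every Het library, which held for 7.69% of all tested genes.

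Cdc27 footprints changed by -0.27, and Anapc1 by 0.35, which turned to -0.09 with median scaling and -0.01 with quantile normalization. Cdc16 stayed at or below 9.41 FPKM of footprints in every library. Fzr1 had 1 read over the 3 KO libraries, or 0.460 FPKM pooled (95% exact Poisson interval 0.0116 to 2.56). Its 9 reads in Het, or 4.68 FPKM pooled (2.14 to 8.88), were all in the second Het library, and the other 2 Het libraries had none. Fbxo5 had 1 read over the KO libraries, or 0.553 FPKM pooled (0.0140 to 3.08), and 1 over the Het libraries, or 0.625 FPKM pooled (0.0158 to 3.48).

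Efficiency was tested for the same 8 members, and 0 rose and 0 fell, with 0 at an unadjusted p below 0.05 (limma). Among all 7382 genes tested 0.853% rose and 0.447% fell, and 1034 had an unadjusted p below 0.05 (limma). The members' median change of efficiency was 0.30 and that of all genes 0.24. The change was 0.42 for Mos, 0.52 for Fbxo43, 0.48 for Cdc20 and 0.22 for Espl1, each with an interval that holds 0. For Mos this interval ran from -0.62 to 1.45 and for Cdc20 from -0.50 to 1.46, and a rise of 1 in efficiency lay within both.

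**Figure D4:**
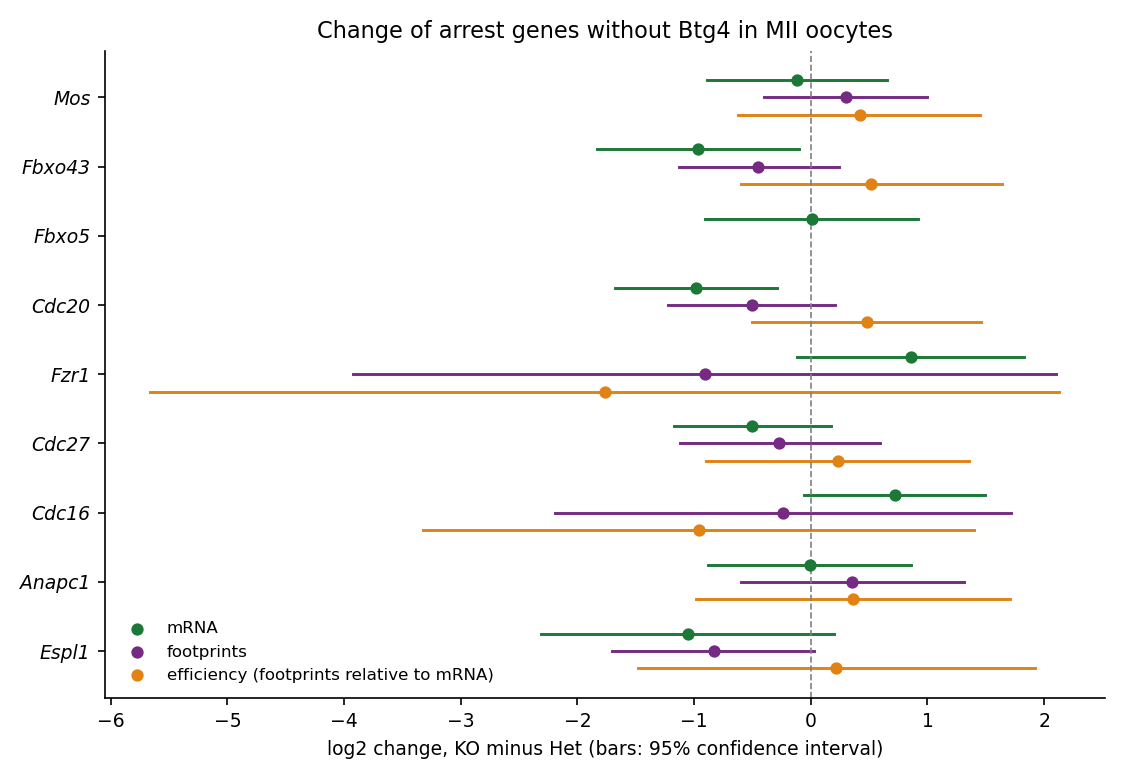
Log2 change, KO minus Het, of the 9 arrest genes that passed the filter in mRNA (green), footprints (purple) and efficiency (orange). Points have bars for the 95% confidence interval from limma fits without a block. The mRNA intervals of Cdc20 and Fbxo43 lie below 0 before adjustment, all other intervals hold 0, and Fbxo5 was tested in mRNA only.

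Footprint levels were next set beside mRNA levels in each genotype. As log2 of (footprint FPKM + 1) over (mRNA FPKM + 1), Espl1 had 3.76 in KO and 3.37 in Het, at percentiles 98.0 and 97.3 of all genes that averaged 1 mRNA FPKM or more. The medians of all genes were -0.11 in KO and -0.14 in Het. Anapc1 (2.32 in KO and 1.97 in Het), Cdc27 (2.08 and 1.86), Fbxo43 (1.93 and 1.41), Cdc20 (1.68 and 1.18) and Mos (0.86 and 0.47) were above the median too, in the same order in both genotypes. Fbxo5 was at the other end. Its mRNA averaged 77.9 ± 28.2 FPKM in KO and 78.4 ± 32.5 FPKM in Het (SD, n = 2 each), while 1 footprint read was counted in each genotype, and it ranked at percentile 0.1 in both. Fbxo43 mRNA averaged 42.7 ± 14.7 FPKM in KO and 84.4 ± 28.9 FPKM in Het (SD, n = 2 each), so Fbxo5 was above Fbxo43 in 2 of 2 KO and 0 of 2 Het mRNA libraries. In footprints Fbxo43 and Fbxo5 had 165 ± 19.4 and 0.507 ± 0.878 FPKM in KO, and 226 ± 21.8 and 0.395 ± 0.685 FPKM in Het (SD, n = 3 each). Cdc16, at -2.12 in KO and -0.86 in Het, was below the median, and Fzr1, at -2.42 in KO and 0.44 in Het, rests on the reads given above.

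Among the 36 further genes of the pathway, 34 were tested in mRNA, of which 6 rose and 1 fell (limma), with a median of 0.09. Since 18.9% of all genes rose in mRNA, this count of risen genes is near the background and is no result about the pathway. Mapk3 rose most, with 122 and 90.0 FPKM in KO, against 17.5 and 10.3 FPKM in Het, a change of 2.87 (limma, adjusted p = 0.00157, n = 2 each). It passed under every alternative that was run. Mapk3 footprints had 7.30, 1.72 and 0 FPKM in KO, against 16.1, 0 and 0 FPKM in Het, and did not pass, at 0.13 (limma, adjusted p = 0.978). Ube2c, the enzyme that starts ubiquitin chains for the APC/C, rose by 1.66 (limma, adjusted p = 0.00805), to 231 and 159 FPKM in KO, against 62.3 and 58.1 FPKM in Het, a call lost with no filter on low values (limma, adjusted p = 0.0559). Of the 11 other subunits 3 rose in mRNA, namely Anapc11 (1.5), the catalytic RING subunit, and Anapc4 and Anapc15 (1.39 each).

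Btrc, a substrate adaptor of the ligase that destroys EMI2, rose in mRNA by 1.36. These last 4 calls were lost with median scaling and with quantile normalization (limma, adjusted p between 0.0535 and 0.0936), and each was lost without at least 1 library, Anapc4 without the first KO library, Anapc11 without the second, Anapc15 without the first Het or second KO library, and Btrc without the second Het or either KO library. Map2k1 fell by 0.98 (limma, adjusted p = 0.0493), a call lost without any 1 of the 4 libraries. In footprints 32 of the 36 were tested, 2 rose and 0 fell, with a median of 0.33. Among all 8526 genes tested 3.21% rose and 0.328% fell, with a median of 0.27. The 2 calls are given as single genes and are no result about the pathway. Ppp3r1, the regulatory subunit of calcineurin, had 695, 941 and 482 FPKM in KO, against 40.8, 24.0 and 105 FPKM in Het, a change of 3.83 (limma, adjusted p = 0.0234, n = 3 each). Its mRNA change was -0.04 (limma, adjusted p = 0.948), at 78.4 and 44.9 FPKM in KO, against 78.0 and 48.1 FPKM in Het. Anapc4 footprints had 101, 181 and 131 FPKM in KO, against 17.6, 37.9 and 23.4 FPKM in Het, a change of 2.37 (limma, adjusted p = 0.0401). Both footprint calls were lost with median scaling, without any 1 KO library and without the first Het library, the call of Anapc4 also without the third Het library and with quantile normalization. In efficiency 32 were tested and 0 passed, with 4 at an unadjusted p below 0.05 (limma). Of all 7382 genes tested 1034 had such a p.

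The genes whose pattern was most like that of Mos were found by the distance between log2(mean FPKM + 1) profiles over 6 groups: single MII oocytes, single FGO, and KO and Het footprints and mRNA. Among 12136 genes with at least 1 FPKM in a group, C87499 (distance 1.07), Mad2l1 (1.35), Med10 (1.47), Rps27l (1.62) and Trim61 (1.63) were nearest to Mos. Mad2l1, which encodes the spindle checkpoint protein MAD2, had footprint means of 331 FPKM in single MII oocytes and 26.0 FPKM in FGO, and mRNA means of 373 FPKM in KO and 602 FPKM in Het. Nearest to Fbxo43 were Ddb2 (0.41), Spint2 (0.52), R3hdm4 (0.54), Zfp735 (0.59) and Mad2l1bp (0.74). Ddb2 had footprint means of 77.0 FPKM in single MII oocytes and 0.849 FPKM in FGO. Genes that share libraries and scaling lie close for that reason too, so the distances are a description.

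Tail lengths, in nucleotides per gene, were read for 9 members in FGO but for few in MII oocytes, where fewer genes had a value. The number of genes with a value was 867 and 1416 in the KO libraries, 598 in Het, 229 in wild-type MII and 6353 in wild-type FGO. The depth of these libraries is unknown, the FGO library is labelled SN while the single FGO are not, and no test was made with 1 library a group. Mos was the only member with a value in all 5 libraries. Its tail was 89.9 and 88.3 nucleotides in KO, 128 in Het and 73.6 in wild-type MII, against 47.0 in FGO. All 4 MII values were above the FGO value, while the 2 MII libraries with Btg4 stood on either side of the KO libraries. In each MII library Mos ranked between percentiles 80.3 and 88.7 of genes, and in FGO at percentile 29.1.

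Between KO and Het the Mos tail differed by -38.4 and -40.0 nucleotides, at percentiles 17.9 and 13.1 of all genes with both values. The median difference of these genes was -7.94 and -7.73, with lower quartiles of -27.8 and -27.0. Cdc20 had 175 nucleotides in Het, at percentile 97.3, and 52.1 in FGO. Espl1 had 108 nucleotides in the second KO library and 60.2 in FGO. Fzr1 had 24.2 nucleotides in the second KO library, at percentile 12.6, against 70.8 in FGO, at percentile 87.5. Within FGO the tails of Fbxo43 (37.0 nucleotides), Cdc27 (41.1) and Mos (47.0) were in the shorter part of the distribution, whose quartiles were 45.3 and 63.3. Those of Anapc1 (82.4), Cdc16 (81.2), Fzr1 and Fbxo5 (65.9) lay above the upper quartile. The members with a tail above the upper quartile in FGO were those whose single-oocyte ratio lay below 1, except that Anapc1 passed 1 for medians over oocytes, with median scaling and without oocytes with a hemoglobin value. The members with a ratio of 1 or more, Mos, Fbxo43, Cdc20, Cdc27 and Espl1, had tails of 37.0 to 60.2 nucleotides. This is a description of 9 genes, made after the values were seen.

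**Figure D5:**
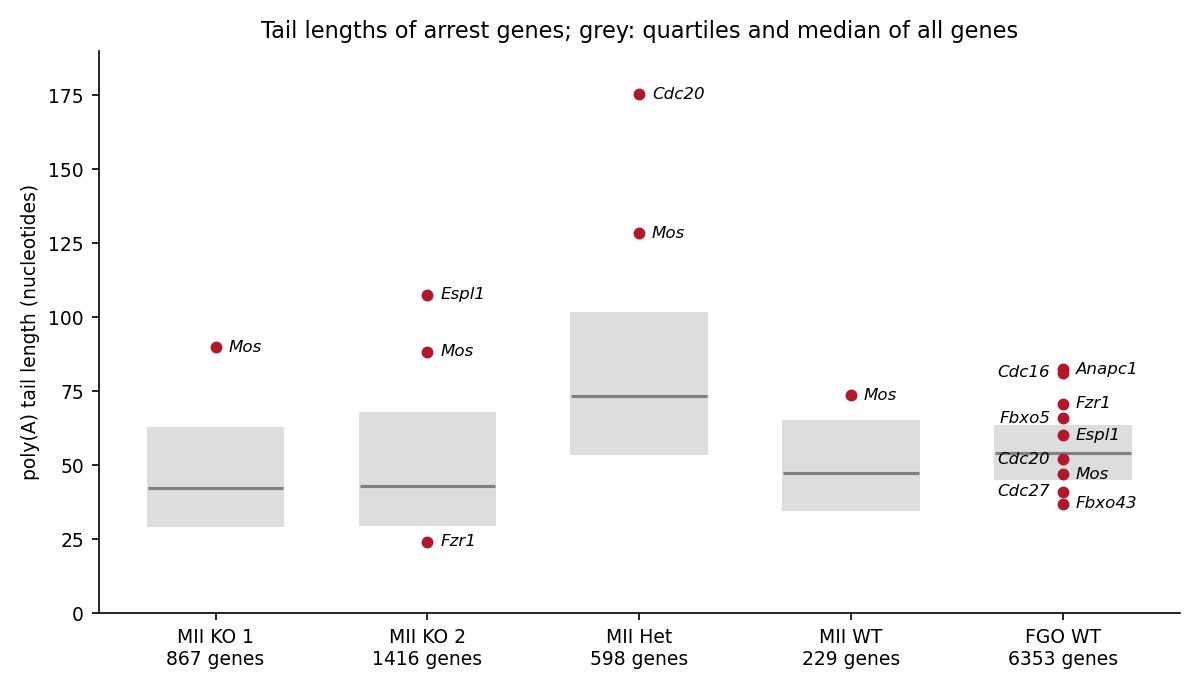
Poly(A) tail length in nucleotides of the arrest genes (red points) in 2 KO, 1 Het and 1 wild-type MII library and 1 wild-type FGO library, with grey boxes for the quartiles and grey lines for the median of all genes with a value. Mos is the only member with a value in each library and stands above the upper quartile in all 4 MII libraries, while 9 members have a value in FGO, between 37.0 and 82.4 nucleotides.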

How the data were processed

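The authors deposited footprint and mRNA levels as FPKM, 1 value per gene and library. The submitters' processing notes name Cufflinks 2.2.1, STAR 2.5.3a, Bowtie2 2.2.2, Trim Galore 0.4.2 and cutadapt 1.14, with builds mm9 and hg19 and no role for any of them. Smart-seq2 reads RNA with a poly(A) tail, and the labels name no spike-in. Tail lengths were deposited in nucleotides, 1 value per gene and library, where 0 was taken as no value. The authors' 4 averaged columns were not used, the 2 merged tail columns serve only for 4 values among the closing observations, and 52 of 105 samples were not analysed here. After 231 exact repeats were dropped, 20756 genes remained.

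The difference of KO minus Het was tested two-sided on log2(FPKM + 1) with limma 3.58.1 (R 4.3.3), for genes that averaged 1 FPKM or more, and p-values were adjusted after Benjamini and Hochberg. Efficiency was the genotype by assay interaction, fitted to the 10 libraries together. Reads were recovered from the steps between low FPKM. For this, genes were kept only if at least 0.9 of their values below 12 reads were whole within 0.03. Over the 9427 genes kept, with 54.2% of footprint FPKM, 99.6% were whole, which follows in part from that choice. Reads are used for Mos, Fbxo5 and Fzr1, whose values below 50 reads were 100% whole, and no count model was run. For Fbxo43, Cdc20, Cdc27, Cdc16, Anapc1 and Espl1 between 10% and 91.2% were whole, so reads are not used. Same-numbered footprint libraries deviated together (correlations 0.255, 0.422 and 0.162), against -0.319 to 0.0977 for unlike numbers. Positive values for like numbers force lower ones for unlike numbers, since deviations are from a mean of 3 libraries. The numbers may thus pair these libraries, which no label states. The footprint tests given are without a block. With a block no call of a member changed, and Espl1 stayed at -0.83 with a standard error of 0.27 (limma, adjusted p = 0.163). The members and lists were chosen with earlier results of these data known. All 10 members are named. Further genes of the pathway are named where they passed a test, and in single oocytes for the 3 largest ratios either way past the fold. The cohesin genes were named after their values were seen. Alternatives were another pseudocount, no filter, other scalings, the block and leaving out each library or oocyte. Equal totals were added after seeing the data. Figures were drawn with matplotlib 3.10.9.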

Additional observations from a re-analysis of the deposited data

How the results depend on the processing

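In mRNA, where no member passed as deposited, 2 members fell with median scaling (Cdc20 and Fbxo43), 1 with quantile normalization and 1 with equal totals (Cdc20 in both), and 0 to 2 when 1 library was left out. In mRNA the same-numbered deviations had a correlation of 0.627, but with 2 libraries a genotype the differently numbered ones have -0.627 by construction. No label ties them, so whether the numbers pair the mRNA libraries is not settled. With the replicate block 2 members were higher in KO (Fzr1 and Cdc16) and 4 lower (Fbxo43, Cdc20, Cdc27 and Espl1), among 3033 genes higher and 1553 lower, against 1677 and 55 without it. Over all genes the mRNA calls were 555 and 5 with no filter, 1018 and 841 with median scaling, and 1104 and 698 with quantile normalization, and calls of lower genes ran from 22 to 270 when 1 library was left out. No member passed in footprints or efficiency under any alternative, the replicate block included. Footprint calls over all genes, 274 higher and 28 lower as deposited, were 177 higher with a pseudocount of 0.1, 145 and 12 with no filter, 100 higher with median scaling, 149 higher with quantile normalization, and 0 to 260 higher and 0 to 14 lower without 1 library, with 0 and 0 without any KO library. Efficiency calls, 63 and 33, were 27 and 12 with no filter, 27 higher with the block, and 0 to 156 higher and 0 to 47 lower without 1 library, with 0 and 0 without any mRNA library. The sign turned for Fbxo5 mRNA (-0.40, -0.27 and -0.09 with median scaling, quantile normalization and equal totals, -0.42 to 0.44 without 1 library), for Mos mRNA (-0.41 to 0.17) and Anapc1 mRNA (-0.28 to 0.26) without 1 library, for Mos footprints (-0.15, median scaling), Anapc1 footprints (-0.09 and -0.01, median scaling and quantile normalization), Cdc16 footprints (-0.98 to 0.31) and Espl1 efficiency (-0.58 to 1.02) without 1 library. None of these passed. In single oocytes 5 members were higher past the fold without any 1 oocyte, and 6, with Anapc1, for medians over oocytes, with median scaling and without oocytes in which hemoglobin genes had reads, and the 1 lower member became 2 with a pseudocount of 0.1, 3 with medians over oocytes, 2 without MII oocytes 2 and 4, 3 with equal totals, and 1 to 2 without 1 oocyte. The cause of these moves was not tested. Depth limits what any 1 oocyte shows of Fbxo5, and the depth of mRNA and tail libraries is unknown. Anapc4 footprints and the pathway calls in mRNA other than Mapk3 were also lost with no filter on low values.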

Other observations

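Cyclin B1 (Ccnb1) footprints differed more between libraries than between genotypes, with 2959, 394 and 3691 FPKM in KO and 4216, 396 and 2735 FPKM in Het. The second library of each genotype was the low one, while Ccnb1 mRNA had 1257 and 1396 FPKM in KO and 1562 and 2083 FPKM in Het. Mos footprints did not share this, with 1213 FPKM in the second KO library and 783 FPKM in the second Het library.

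In the authors' deposited table the merged tail of the KO libraries was 156 nucleotides for Fbxo5, for which neither KO library had a value of its own, and 129 nucleotides for Espl1, against 108 in the second KO library. In the authors' deposited table the merged tail of Mos was 88.8 nucleotides over the KO libraries and 118 nucleotides over the wild-type and Het libraries of MII oocytes.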
